A study of Mus musculus with 12 samples.

Results

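The genes described here mark cholinergic motoneurons: Chat, Slc18a3, Slc5a7, Ache, Isl1, Isl2, Mnx1, Chodl and Ret. They were chosen by their symbols, as 9 of the 45906 genes in the table of counts, and all 9 passed the filter on low counts and were among the 20155 genes tested. RNA sequencing was done on spinal cord tissue of 12 mice aged 7 months, with 3 mice in each of 4 genotypes. Plekhg5+/+ mice carried neither change and served as controls, and Plekhg5-/- mice were deficient for the Rab26 activator Plekhg5. Plekhg5+/+ SOD1-G93A mice carried a human SOD1 transgene with the G93A mutation, and Plekhg5-/- SOD1-G93A mice carried both changes. All strains were on a C57BL/6 background, the transgenic line is the slowly progressing "low copy" model of amyotrophic lateral sclerosis, and sex was not considered in the design. Y-linked transcripts were found in 3 of the 3 Plekhg5+/+ libraries, 2 of the Plekhg5-/- libraries, 2 of the Plekhg5+/+ SOD1-G93A libraries and 1 of the Plekhg5-/- SOD1-G93A libraries.

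Spinal motoneurons are the cells whose axons leave the cord to make skeletal muscle contract, and they signal with acetylcholine. The transmitter is made by choline acetyltransferase (Chat), loaded into synaptic vesicles by the vesicular acetylcholine transporter (Slc18a3), split in the synaptic cleft by acetylcholinesterase (Ache), and remade from choline that the high-affinity choline transporter (Slc5a7) brings back into the terminal. Isl1, Isl2 and Mnx1 (also known as HB9) are homeodomain transcription factors that specify motoneurons in the embryo, Chodl is a membrane protein that marks fast motoneurons, and Ret is the receptor tyrosine kinase for ligands of the GDNF family. In mice that carry mutant SOD1, motoneurons degenerate, fast ones before slow ones. Spinal cord also holds cholinergic interneurons and preganglionic autonomic neurons, so Chat, Slc18a3 and Slc5a7 are not particular to motoneurons.

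Chat and Slc18a3 form one locus. In the deposited annotation (GRCm38.p6), Chat spans chr14:32408203-32465909 on the minus strand, and Slc18a3 lies at chr14:32462437-32464850 on the same strand. In the GENCODE vM21 annotation of that genome, the transcript Chat-201 has its first exon at chr14:32465807-32465957 and its second at chr14:32460725-32460913, so that Slc18a3, a gene of 1 exon there, sits in the first intron. The other members lie at chr17:54273590-54299038 (Slc5a7, minus strand), chr5:137288247-137294466 (Ache, plus), chr13:116298270-116309688 (Isl1, minus), chr9:55538677-55547667 (Isl2, plus), chr5:29473823-29478470 (Mnx1, minus), chr16:78930841-78951736 (Chodl, plus) and chr6:118151748-118197744 (Ret, minus). Ache also overlaps the lncRNA gene LOC115490145 on the opposite strand and Mir8116 on its own strand. Reads on overlapping exons, and reads that map to several places, were counted as fractions, and counts that were not whole occurred for Chat in 10 of 12 libraries, for Ache in 6, for Ret in 2, for Slc18a3 in 1 and for the other members in 0. Reads were counted by strand, so that reads of LOC115490145 were kept apart from those of Ache.

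Upstream sequences of 3 genes of acetylcholine synthesis and transport and of Chodl are shown, because the first 3 serve 1 pathway and Chodl was the member with the lowest SOD1-G93A fold change. RefSeq start sites (GRCm38.p6) were matched for 8 of the 9 members, and Ret was not matched. The sequences run 5′ to 3′ on the strand of the gene and end where the gene begins in the deposited RefSeq annotation or in GENCODE vM21, whichever reaches further upstream, at chr14:32465990-32466159 for Chat (minus strand), chr14:32464851-32465100 for Slc18a3 (minus), chr17:54299039-54299284 for Slc5a7 (minus) and chr16:78930698-78930840 for Chodl (plus). Capitals mark every match, on either strand, to 7 motifs: the homeodomain core in its forms TAATTA as well as TAATTG, the cAMP response element TGACGTCA with its shorter form TGACG (which lies within it), the GC box GGGCGG, the E-box named CAGCTG here, and the TATA box TATAAA.
Chat: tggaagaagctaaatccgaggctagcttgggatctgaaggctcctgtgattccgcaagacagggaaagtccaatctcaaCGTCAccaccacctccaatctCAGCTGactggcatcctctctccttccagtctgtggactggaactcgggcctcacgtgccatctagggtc
Slc18a3: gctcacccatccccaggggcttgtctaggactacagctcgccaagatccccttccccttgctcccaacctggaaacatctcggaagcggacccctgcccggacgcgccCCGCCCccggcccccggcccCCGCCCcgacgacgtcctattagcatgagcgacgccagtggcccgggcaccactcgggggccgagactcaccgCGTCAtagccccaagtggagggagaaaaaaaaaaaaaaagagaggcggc
Slc5a7: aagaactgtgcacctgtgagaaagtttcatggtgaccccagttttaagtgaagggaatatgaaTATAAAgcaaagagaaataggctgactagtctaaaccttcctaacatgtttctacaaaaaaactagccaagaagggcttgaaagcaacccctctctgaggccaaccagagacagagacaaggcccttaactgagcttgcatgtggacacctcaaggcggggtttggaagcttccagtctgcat
Chodl: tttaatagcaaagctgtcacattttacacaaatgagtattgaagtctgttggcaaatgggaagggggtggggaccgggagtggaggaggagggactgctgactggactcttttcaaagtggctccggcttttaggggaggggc

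In the windows of 250 bases before the start site, Chat and Slc18a3 both held TGACG, the 5′ part of a cAMP response element, which 17.8% of the 32851 RefSeq windows of that length also held. Chat had in addition 1 match to the E-box CAGCTG (13% of windows), Slc18a3 had 2 matches to the GC box GGGCGG (32.7%), and Slc5a7 had 1 match to the TATA box TATAAA (12.4%). The match in Slc5a7 began 187 bases before the start site, and whether it acts as a TATA box was not tested. The window of Chodl held none of the 7 motifs. Among the members not printed, Ache held GGGCGG 4 times, Isl1 held TGACG 2 times and CAGCTG once, Isl2 held the whole element TGACGTCA (1.55% of windows) and GGGCGG, and Mnx1 held GGGCGG and the homeodomain core TAATTG (7.17%). Its other form TAATTA, found in 4.84% of windows, was in none of the 8. The GC content of the printed sequences was 54.7% for Chat, 66% for Slc18a3, 45.1% for Slc5a7 and 51% for Chodl, against a median of 52.4% over all windows.

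The libraries held 30415643 to 38743628 counts, with a median of 32714352. The targeted genes followed the labels: Plekhg5 stood at 19.4 to 25.0 CPM (counts scaled to library size) in the 6 Plekhg5+/+ libraries and at 3.28 to 4.72 CPM in the 6 Plekhg5-/- libraries, and human SOD1 stood at 4421 to 5638 CPM in the transgenic libraries and at 0.153 to 5.47 CPM in the others. Mouse Sod1 stood between 144 and 186 CPM in every library. Some libraries carried transcripts of other tissue. Replicate 2 of Plekhg5-/- SOD1-G93A had 8.20 CPM of Scn10a, a sodium channel of dorsal root ganglion neurons, against 0.551 CPM at most elsewhere, and of 9 ganglion marker genes 4 passed the filter on low counts. The summed level of the 9 was 519 CPM in that library, 531 and 575 CPM in the others of its group, 450 to 541 CPM in Plekhg5+/+ SOD1-G93A, 536 to 625 CPM in Plekhg5-/- and 536 to 592 CPM in Plekhg5+/+ mice, most of it from Tubb3, which all neurons make. The summed level of 6 skeletal muscle genes was 156 CPM in Plekhg5+/+ replicate 3, 49.6 CPM in Plekhg5-/- replicate 2, 81.0 CPM in Plekhg5+/+ SOD1-G93A replicate 3 and 35.9 CPM in Plekhg5-/- SOD1-G93A replicate 2, and at most 7.95 CPM in the other libraries. Hoxd11, a gene of the caudal cord, was below 2 CPM in Plekhg5-/- replicate 1 (1.11 CPM) and Plekhg5+/+ SOD1-G93A replicate 3 (0.900 CPM), and the level of the cord that was dissected is not given in the sources used here. The mRNA of spinal cord tissue was sequenced rather than that of single cells, so that fewer motoneurons and less RNA per motoneuron cannot be told apart. By staining, the paper found ChAT-positive neurons of the lumbar ventral horn unchanged in number at disease onset and reduced at the endstage. At the endstage it reported a slight but significant gain in their survival in Plekhg5-/- SOD1-G93A over Plekhg5+/+ SOD1-G93A mice. That count was not made on the libraries used here.

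Per length of the gene's exons, the members' levels in Plekhg5+/+ mice spread widely. Ache came first at 47.2 CPM per kb, followed by Slc5a7 at 23.3, Slc18a3 at 20.1 and Ret at 19.2 CPM per kb, then by Chat at 11 and Chodl at 10.3 CPM per kb. The transcription factors were near 1 CPM per kb, with Mnx1 at 1.08, Isl1 at 1.02 and Isl2 at 0.936 CPM per kb. The order within the last group, that of Chat and Chodl, and that of Slc18a3 and Ret did not exceed the spread between mice. The transcription factors therefore rest on few reads: Mnx1 had 30 to 77 counts per library, Isl1 had 47 to 106 and Isl2 had 47 to 122, whereas Chat had 630 to 1148 and Ache 5579 to 7343.

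The first question was how the SOD1-G93A transgene affected these genes in mice with Plekhg5. All 9 members had lower mean levels in Plekhg5+/+ SOD1-G93A than in Plekhg5+/+ mice, and 1 of them, Chodl, passed the test and fell. Over all genes tested, 2.47% passed in this comparison and 0.377% passed with lower levels. Without adjustment, 7 of 9 members had a p under 0.05 with lower levels, against 7.51% of all genes, and in 6 of 9 members all 3 transgenic mice were below all 3 controls, against 9% of all genes. The median log2 fold change of the members was -0.40 and that of all genes was -0.00099.

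Chodl, the fast motoneuron marker, stood at 42.4, 41.5 and 39.5 CPM in the Plekhg5+/+ mice and at 17.5, 29.3 and 22.6 CPM in the Plekhg5+/+ SOD1-G93A mice. The groups were apart, with the highest transgenic mouse below the lowest control and replicate 1 lowest. Relative to the mean of the controls, the transgenic mice held 42.6%, 71.3% and 54.9%. The log2 fold change was -0.83 ± 0.184 (SE, n = 3 mice per group) with an adjusted p of 0.0387 by edgeR's quasi-likelihood test with Benjamini-Hochberg adjustment. The call was narrow under edgeR. When 1 of the 12 mice was left out at a time, it was lost in 9 cases, with adjusted p-values of 0.111, 0.145 and 0.0623 without Plekhg5+/+ replicates 1, 2 and 3, 0.0558, 0.0591 and 0.0576 without Plekhg5-/- replicates 1, 2 and 3, 0.117 and 0.0827 without Plekhg5+/+ SOD1-G93A replicates 1 and 3, and 0.0533 without Plekhg5-/- SOD1-G93A replicate 3. DESeq2 gave an adjusted p of 0.000481. Over all alternatives the call was lost in 16 of 24 settings, among them limma voom with sample weights (adjusted p = 0.105), no filter on low counts (0.0888), the 2 genotypes alone (0.0898), the replicate number as a block (0.0599) and a term for Y-linked transcripts (0.0521).

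Chat stood at 29.5, 32.6 and 30.7 CPM in the controls and at 19.6, 26.9 and 24.1 CPM in the Plekhg5+/+ SOD1-G93A mice. All 3 transgenic mice were below all controls, and replicate 1 was again the lowest. The log2 fold change was -0.40 ± 0.110 (SE) and did not pass the edgeR test (adjusted p = 0.0776), though it passed DESeq2 (adjusted p = 0.0200). Slc18a3, which shares the locus with Chat, stood at 48.8, 49.3 and 47.3 CPM in the controls and at 33.8, 47.4 and 44.5 CPM with the transgene. Its groups overlapped by 1 mouse, and the log2 fold change of -0.21 ± 0.142 had an adjusted p of 0.475 by the same edgeR test. Slc5a7 stood at 116, 129 and 132 CPM in the controls and at 92.1, 118 and 101 CPM with the transgene, a log2 fold change of -0.28 ± 0.115 with an adjusted p of 0.224. Here replicate 2 of the transgenic mice was above the lowest control. Ache stood at 195, 200 and 203 CPM in the controls and at 173, 190 and 181 CPM with the transgene. Its groups were apart although the step was small, with a log2 fold change of -0.14 ± 0.0554 and an adjusted p of 0.213. Ache is also made outside cholinergic neurons, in cells that receive acetylcholine.

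The transcription factors had larger fold changes than the enzyme and transporter genes, on far fewer reads. Isl2 stood at 2.99, 3.84 and 3.31 CPM in the controls and at 1.46, 2.44 and 2.19 CPM in the Plekhg5+/+ SOD1-G93A mice. The groups were apart, and the log2 fold change of -0.73 ± 0.197 missed the threshold in edgeR (adjusted p = 0.0703) and passed it in DESeq2 (adjusted p = 0.0231). Isl1 stood at 3.07, 2.52 and 2.11 CPM in the controls and at 1.86, 1.55 and 1.80 CPM with the transgene, a log2 fold change of -0.56 ± 0.177 with an adjusted p of 0.113. The groups did not overlap, yet the range of the control mice was wider than the difference of the means. Mnx1 stood at 1.57, 1.51 and 1.65 CPM in the controls and at 0.994, 0.990 and 1.08 CPM with the transgene, a log2 fold change of -0.62 ± 0.221 with an adjusted p of 0.153. Its values were the tightest of the 3 factors within each of these groups, on 30 to 54 counts per library. That closeness was not set against counting noise.

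Ret stood apart from the other members. It was at 124, 154 and 146 CPM in the controls and at 127, 160 and 114 CPM in the Plekhg5+/+ SOD1-G93A mice, and replicate 2 with the transgene was above every control. The log2 fold change was -0.08 ± 0.122 with an adjusted p of 0.769, and its sign turned in 3 of 24 alternative settings.

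**Figure D1:**
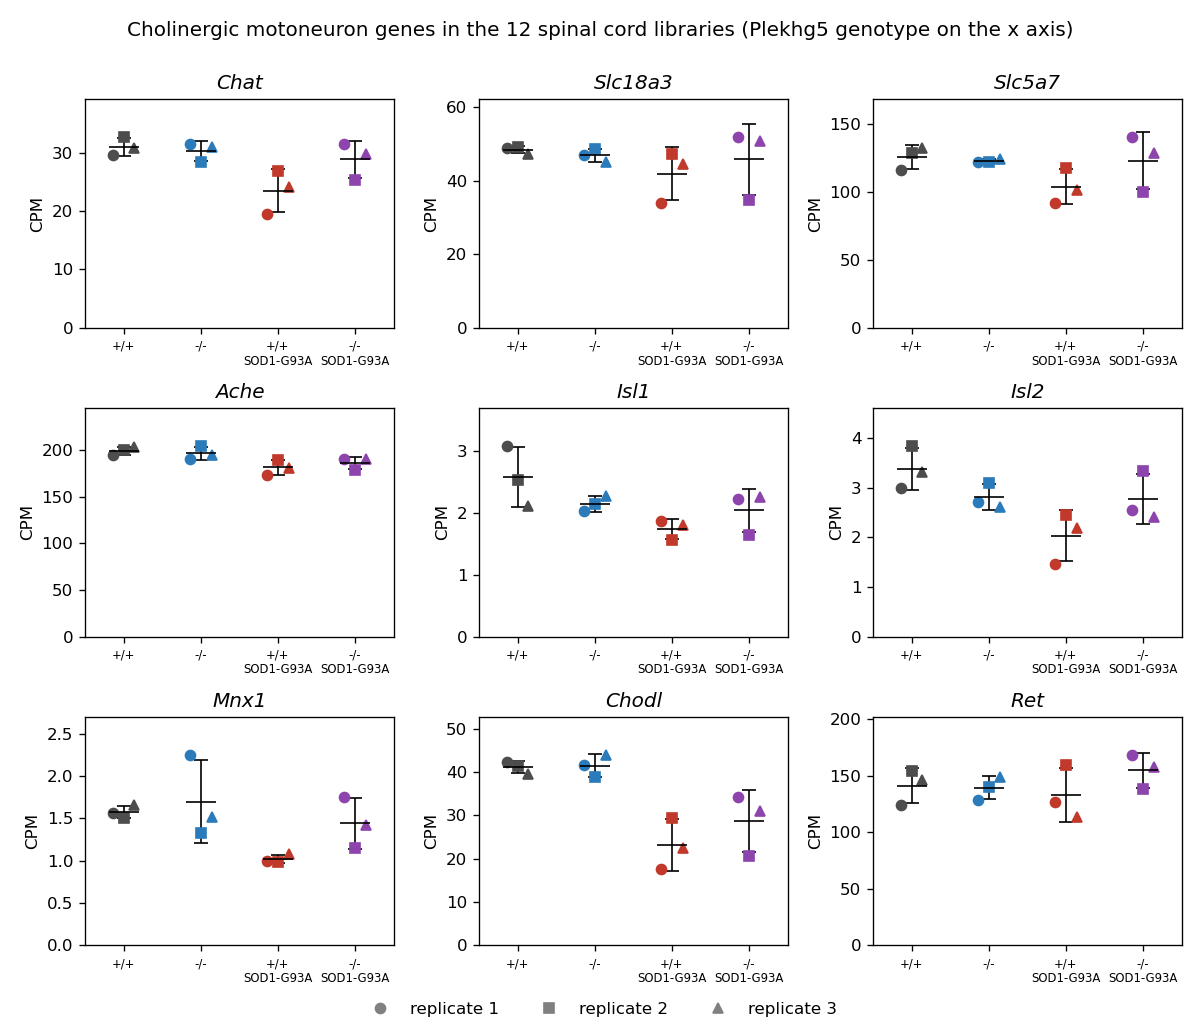
Each panel plots the level of 1 member (y axis, CPM, from 0) in the 12 libraries by Plekhg5 genotype and transgene (x axis), with circles, squares and triangles for replicates 1, 2 and 3, and bars for the mean ± SD of 3 mice. For Chodl, the Plekhg5+/+ SOD1-G93A mice lie between 17.5 and 29.3 CPM, below the 38.7 to 44.0 CPM of the 6 mice without the transgene, while the 4 groups overlap for Ret.

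The second question was the same transgene in mice without Plekhg5. None of the 9 members passed the test when Plekhg5-/- SOD1-G93A mice were compared with Plekhg5-/- mice, where 0.00496% of all genes passed, a single gene, which was the human transgene. By edgeR's unadjusted p under 0.05, 1 member (Chodl) was lower, against 2.1% of all genes, and DESeq2 with either setting also called 0 members. In 2 members, Chodl and Ache, the groups did not overlap, against 5.22% of all genes with lower levels. The median log2 fold change was -0.07, with 7 members lower and 2 higher.

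Chodl stood at 41.5, 38.7 and 44.0 CPM in the Plekhg5-/- mice and at 34.3, 20.7 and 30.9 CPM in the Plekhg5-/- SOD1-G93A mice. All 3 transgenic mice were below all 3 mice without the transgene, and replicate 2, the library with ganglion transcripts, was the lowest. The log2 fold change was -0.53 ± 0.181 (SE, n = 3 mice per group) with an adjusted p of 0.773 by edgeR's quasi-likelihood test, and it was -0.34 without that library. Chat stood at 31.5, 28.3 and 31.0 CPM without the transgene and at 31.5, 25.3 and 29.7 CPM with it. Its groups overlapped, and the log2 fold change of -0.07 ± 0.109 had an adjusted p of 0.959. Slc18a3 stood at 47.0, 48.6 and 45.1 CPM without the transgene and at 51.8, 34.7 and 50.8 CPM with it, and Slc5a7 at 122, 122 and 124 CPM without and at 140, 99.6 and 129 CPM with it. For both transporters, replicate 2 was far below its group while replicates 1 and 3 were above every Plekhg5-/- mouse.

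Ache stood at 191, 204 and 195 CPM in the Plekhg5-/- mice and at 190, 179 and 190 CPM with the transgene, a log2 fold change of -0.08 ± 0.0554. The groups were apart by less than 1 CPM. Isl1 stood at 2.02, 2.14 and 2.27 CPM without the transgene and at 2.22, 1.64 and 2.25 CPM with it. Isl2 stood at 2.72, 3.10 and 2.62 CPM without and at 2.56, 3.34 and 2.41 CPM with it. Both sets overlapped, with log2 fold changes of -0.07 ± 0.176 for Isl1 and -0.03 ± 0.193 for Isl2. Mnx1 stood at 2.25, 1.33 and 1.51 CPM without the transgene and at 1.76, 1.15 and 1.42 CPM with it, a log2 fold change of -0.23 ± 0.211 over overlapping groups. Ret stood at 129, 140 and 149 CPM without and at 169, 138 and 158 CPM with it, and was 1 of the 2 members with a positive log2 fold change (0.15 ± 0.122).

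The library with ganglion transcripts was the lowest of its group for 8 of 9 members, all but Isl2, for which it was the highest at 3.34 CPM. Isl1, Isl2 and Ret are also made by sensory neurons of the dorsal root ganglia. Without this library, the log2 fold changes of the transgene in Plekhg5-/- mice were 0.01 for Chat, 0.13 for Slc18a3, 0.13 for Slc5a7, 0.06 for Isl1, -0.18 for Isl2 and 0.23 for Ret, the median of the members was 0.01, and 4 of 9 were lower. It also carried muscle transcripts, and the part of either in these values was not tested.

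Loss of Plekhg5 on its own left no member past the test. Between Plekhg5-/- and Plekhg5+/+ mice, 0 of 9 members passed, against 0.0298% of all genes, DESeq2 called 0, and 0 had an unadjusted p under 0.05 in edgeR, where 2.79% of all genes had one with lower and 2.53% with higher levels. In 0 of 9 members were the groups apart, against 3.99% of all genes with lower and 4.72% with higher levels. The median log2 fold change was -0.03, and the values ran from -0.26 ± 0.174 for Isl1 and -0.26 ± 0.191 for Isl2 to 0.11 ± 0.211 for Mnx1. For Chodl the means were 41.1 ± 1.44 CPM in Plekhg5+/+ and 41.4 ± 2.62 CPM in Plekhg5-/- mice (SD, n = 3), a log2 fold change of 0.01 ± 0.180. Mnx1 had its highest level of all 12 libraries, 2.25 CPM, in Plekhg5-/- replicate 1, 1 of the 2 libraries low in Hoxd11.

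With the transgene present, loss of Plekhg5 came with higher means of all 9 members, of which 0 passed the test. Over all genes, 0.0347% passed in this comparison of Plekhg5-/- SOD1-G93A with Plekhg5+/+ SOD1-G93A mice. DESeq2 called 0 members, and 3 members had an unadjusted p under 0.05 with higher levels in edgeR (Chat, Isl2 and Mnx1), against 3.59% of all genes. In 1 member, Mnx1, the groups did not overlap, against 9.48% of all genes with higher levels. The median log2 fold change was 0.24, against -0.01 for all genes, and adjusted p-values by edgeR's quasi-likelihood test ran from 0.517 to 0.825. The log2 fold changes were 0.30 ± 0.110 (SE, n = 3 mice per group) for Chat, 0.13 ± 0.142 for Slc18a3, 0.24 ± 0.115 for Slc5a7 and 0.04 ± 0.0554 for Ache. They were 0.23 ± 0.179 for Isl1, 0.45 ± 0.198 for Isl2 and 0.50 ± 0.222 for Mnx1. For Chodl the log2 fold change was 0.31 ± 0.184 and for Ret 0.22 ± 0.122. This comparison shares its Plekhg5+/+ SOD1-G93A mice with the first, where the same mice stood below their controls. The members' median was 0.18 without Plekhg5+/+ SOD1-G93A replicate 1, with 8 of 9 members higher, 0.38 without replicate 2 of that group, and 0.36 without the library with ganglion transcripts. Other lists had these values in the same comparison, with 0 genes called in each. Of 12 genes expressed across neurons 11 were higher (median log2 fold change 0.15), of 18 genes of motoneuron types and pools 15 were higher (0.14), of 7 Schwann cell genes 5 were higher (0.67), and of 10 microglial genes 10 were lower (-0.63). Their part in the members' values was not tested.

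**Figure D2:**
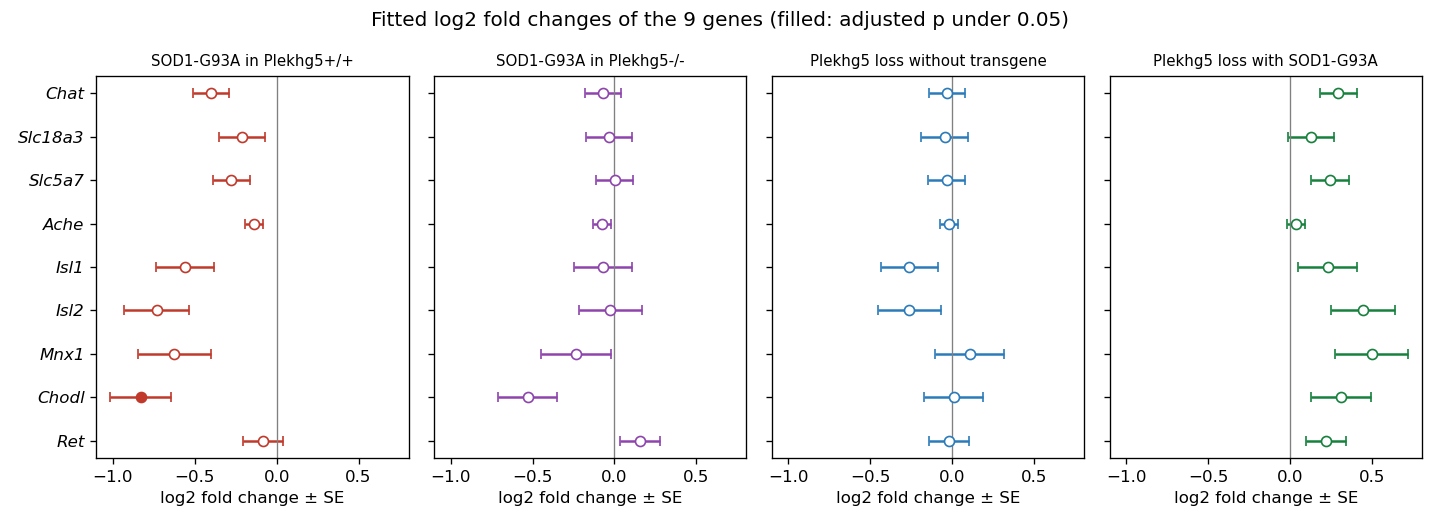
Fitted log2 fold changes (x axis) of the 9 members (y axis) in 4 comparisons, with bars for ± SE and a filled point where the adjusted p was under 0.05. Chodl with SOD1-G93A in Plekhg5+/+ mice (-0.83) is the only filled point, and neighbouring panels share groups of mice.

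Whether the transgene acted differently with and without Plekhg5 was tested by the interaction. For all 9 members the fold change in Plekhg5-/- mice was the higher one, by a median of 0.30 on the log2 scale, against -0.01 for all genes, and 0 members passed, as did 0 of all genes tested (0%). The median was 0.19 without Plekhg5-/- SOD1-G93A replicate 1 and 0.41 without replicate 2, the library with ganglion transcripts, with all 9 members positive in both. Other lists also moved in the interaction, with 0 genes called in each. Of 12 genes expressed across neurons 11 were positive (median 0.15), and of 18 genes of motoneuron types and pools 14 were (0.11). Of 14 other motoneuron transcription factors 9 were positive (0.19). Of 7 Schwann cell genes 5 were positive (1.24), and of 10 microglial genes 10 were negative (-0.93). Their part in the members' values was not tested. In edgeR, 1 member, Isl2, had an unadjusted p under 0.05 with a positive difference, against 3.87% of all genes, and DESeq2 called 0 members. The difference was 0.71 ± 0.275 for Isl2 (adjusted p = 0.480 by edgeR's quasi-likelihood test) and 0.55 without the library with ganglion transcripts. It was 0.33 ± 0.155 for Chat, 0.49 ± 0.249 for Isl1, 0.39 ± 0.306 for Mnx1 and 0.30 ± 0.257 for Chodl. A difference between the transgene's effects in the 2 Plekhg5 genotypes was thus not shown for any member, nor was their equality.

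Averaged over both Plekhg5 genotypes, with 6 mice against 6, Chodl was again the member that passed, and it fell by 0.68 ± 0.129 on the log2 scale (adjusted p = 0.0337 by edgeR's quasi-likelihood test). All 6 transgenic mice, between 17.5 and 34.3 CPM, were below all 6 others, between 38.7 and 44.0 CPM. Over all genes 1.22% passed, and 0.0744% passed with lower levels. Ache was the other member whose 6 transgenic mice (173 to 190 CPM) were all below the 6 others (191 to 204 CPM), and its log2 fold change of -0.11 ± 0.0392 had an adjusted p of 0.210. Of all genes, 0.288% had groups apart in this way, with lower levels. Unadjusted, 6 members had a p under 0.05 with lower levels, against 5.33% of all genes. The log2 fold changes were -0.23 ± 0.0776 for Chat, -0.38 ± 0.138 for Isl2, -0.43 ± 0.153 for Mnx1 and 0.03 ± 0.0862 for Ret. The call of Chodl was lost without the library with ganglion transcripts (adjusted p = 0.0629, log2 fold change -0.59), without either other Plekhg5-/- SOD1-G93A mouse (0.0670 and 0.0513 without replicates 1 and 3), and without any mouse lacking the transgene (0.0558 to 0.0942), 9 of 12 mice in all. All 12 of these fits kept a negative sign.

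One mouse weighed on the first comparison. Plekhg5+/+ SOD1-G93A replicate 1 had the lowest level of all 12 libraries for 6 of 9 members and the highest summed level of 10 microglial genes. Csf1r, the receptor that microglia need to survive, was at 237 CPM in it, at 148 and 167 CPM in the other 2 mice of its group and at 95.6 to 136 CPM in the other genotypes. The sum of these 10 genes was 1541 CPM in this mouse and 845 and 907 CPM in the others of its group, against 453 to 528 CPM in Plekhg5+/+, 499 to 685 CPM in Plekhg5-/- and 640 to 709 CPM in Plekhg5-/- SOD1-G93A mice, and of the 10 genes 9 rose with the transgene in Plekhg5+/+ mice, Trem2 by 1.79 on the log2 scale. Without this mouse all 9 members still had negative log2 fold changes, with a median of -0.28, and Chodl was at -0.67 with an adjusted p of 0.117. The values without it were -0.28 for Chat, -0.54 for Isl2, -0.61 for Isl1 and -0.60 for Mnx1. The members' median was -0.40 with all mice, -0.51 without replicate 2 of the same group and -0.42 without replicate 3. In these last 2 fits 9 and 8 of the 9 members were lower. CPM values are shares of a library, and the part of the microglial transcripts in the members' levels was not tested.

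Leaving out the 4 libraries with muscle transcripts gave -0.85 for Chodl in Plekhg5+/+ mice with an adjusted p of 0.0962, -0.43 for Chat and -0.82 for Isl2. Leaving out the 2 libraries low in Hoxd11 gave -0.81 for Chodl with an adjusted p of 0.127. Hoxc6, a marker of brachial levels, had means of 37.7 CPM in Plekhg5+/+ and 27.5 CPM in Plekhg5+/+ SOD1-G93A mice (log2 fold change -0.46, adjusted p = 0.0594), Hoxc9 of thoracic levels 9.71 and 7.89 CPM, and Hoxc10 of lumbar levels 33.1 and 29.3 CPM. All 10 of the Hox genes tested had lower means with the transgene in Plekhg5+/+ mice, with 0 called, and whether the level of the cord moved the members was not tested.

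**Figure D3:**
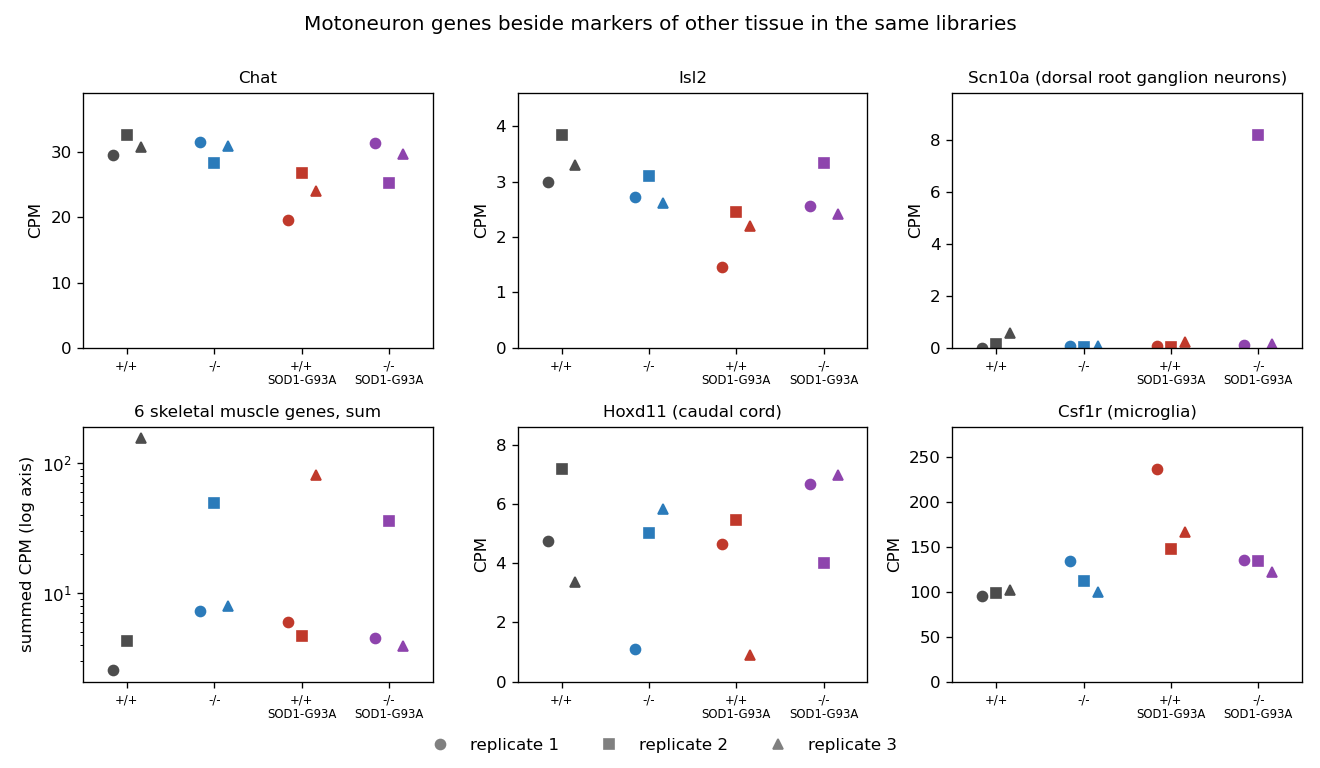
Levels of Chat and Isl2 beside markers of other cells and of cord level in the same 12 libraries (y axes in CPM, with a log axis for the summed muscle genes, and genotype on the x axis), with symbols for replicates 1, 2 and 3. Plekhg5-/- SOD1-G93A replicate 2 stands out for Scn10a (8.20 CPM), and Plekhg5+/+ SOD1-G93A replicate 1 is highest for Csf1r (237 CPM) and lowest for Chat (19.6 CPM).

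Of 10 other genes of the cholinergic pathway, 7 were lower and 3 higher with the transgene in Plekhg5+/+ mice, 0 passed, and the median log2 fold change was -0.06. Slc10a4, an orphan transporter of cholinergic and monoaminergic vesicles, stood at 24.4, 24.8 and 22.4 CPM in the controls and at 15.2, 20.9 and 16.4 CPM with the transgene. Its groups were apart, and its log2 fold change of -0.45 ± 0.128 (adjusted p = 0.0863) was near that of Chat. Chka, the choline kinase that turns choline to phospholipid synthesis, had a log2 fold change of -0.45 (adjusted p = 0.0564). In Plekhg5-/- mice 7 of the 10 were lower with the transgene and 0 passed.

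The receptors of acetylcholine did not pass the test in any comparison. Of 16 nicotinic receptor subunits 10 passed the filter on low counts, 5 of them lower and 5 higher with the transgene in Plekhg5+/+ mice, with a median log2 fold change of -0.02. Chrna6 had a log2 fold change of 1.38 in Plekhg5-/- mice (adjusted p = 0.498), with its highest value, 1.18 CPM, in the library with ganglion transcripts. Of 5 muscarinic receptors 2 were lower and 3 higher in Plekhg5+/+ mice, and Chrm2 had a log2 fold change of -0.30 (adjusted p = 0.219). Of 8 ligands and co-receptors of Ret 7 passed the filter, 2 lower and 5 higher with a median of 0.08. Gfra1, the GDNF co-receptor, had log2 fold changes of 0.17 in Plekhg5+/+ and 0.18 in Plekhg5-/- mice, and Gfra2, the co-receptor of neurturin, 0.08 and 0.19.

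Lists of other motoneuron genes had less negative medians than the 9 members in the same comparison. Tissue RNA does not show which cells made these transcripts, so the medians describe the lists and not motoneurons alone. Of 15 other transcription factors of motoneurons 14 passed the filter, 9 lower and 5 higher with a median log2 fold change of -0.06, and 0 passed the test. Lhx4, a LIM-homeodomain factor of early motoneurons, stood at 8.03, 10.3 and 8.39 CPM in the controls and at 5.19, 7.52 and 4.68 CPM with the transgene. The 3 transgenic mice were below all controls, with a log2 fold change of -0.62 and an adjusted p of 0.0792. Of 18 genes of motoneuron types and pools 12 were lower and 6 higher, with a median of -0.13 and 0 called. Vipr2 among them had -0.48 (adjusted p = 0.128) and Calca, the gene of the peptide CGRP, 0.36 (adjusted p = 0.212).

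Neurons at large were set beside these. Of 12 genes expressed across neurons 11 were lower with the transgene in Plekhg5+/+ mice, 0 passed, and the median was -0.16, with -0.47 for Nefm and -0.35 for Nefl, the neurofilament subunits of large axons (adjusted p = 0.0586 and 0.0639). The 6 genes of inhibitory neurons had a median of -0.02 and a range of -0.17 to 0.06, and the 6 of excitatory neurons a median of 0.01. In Plekhg5-/- mice the medians were -0.01 for genes across neurons, 0.07 for inhibitory and 0.03 for excitatory neurons, beside -0.07 for the 9 members. Among glia, Gfap of astrocytes rose with the transgene in Plekhg5+/+ mice by 1.23 on the log2 scale. It was the only 1 of 8 astrocyte genes called, of which 7 were higher and 1 lower with a median of 0.11, and 0 of 8 oligodendrocyte genes passed. The differences between these lists were not tested.

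**Figure D4:**
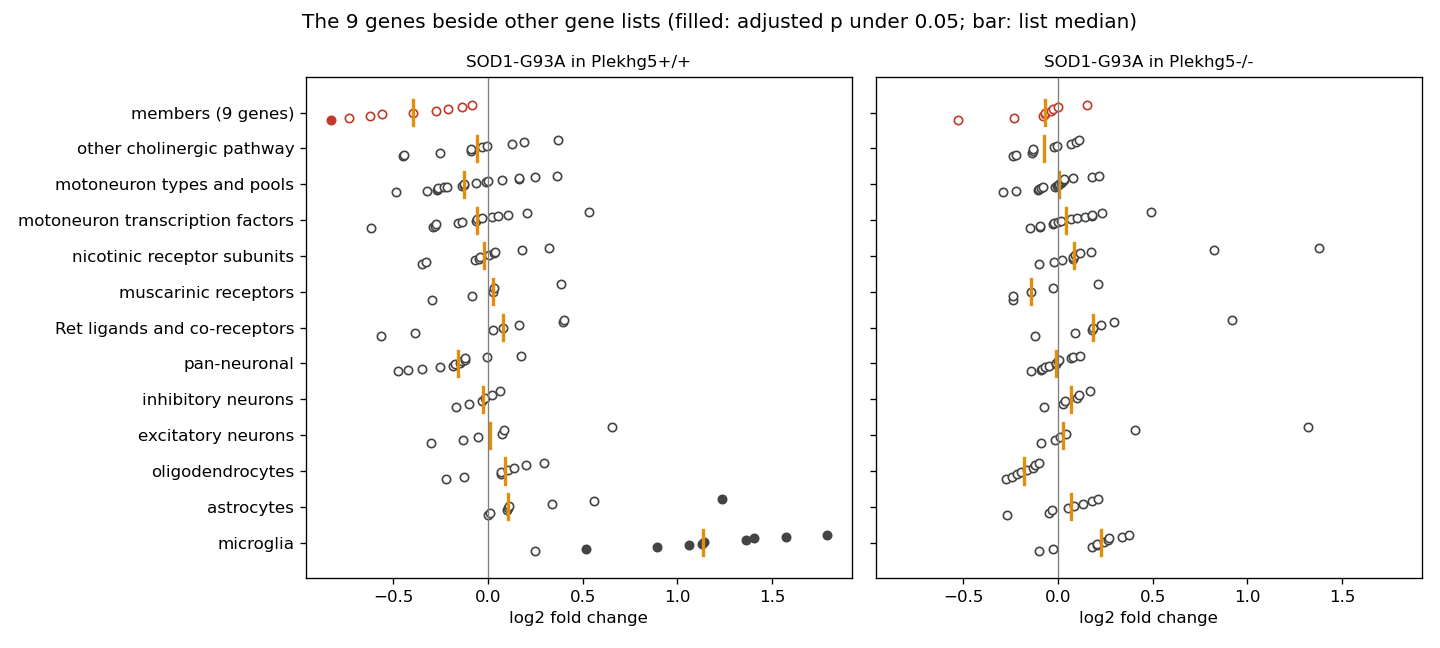
Log2 fold changes with SOD1-G93A (x axis) in Plekhg5+/+ (left) and Plekhg5-/- mice (right) for the 9 members and 12 other gene lists (y axis), with 1 circle per gene tested, filled where the adjusted p was under 0.05, and a bar at the list's median. In Plekhg5+/+ mice the members' median is -0.40 and that of the microglial genes 1.13, and no circle is filled in Plekhg5-/- mice.

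Across the 12 libraries, the genes whose log2 CPM followed Chat most closely included Acly (r = 0.96), Eno2 (0.95), Dync1i1 (0.95), Nckipsd (0.94), Calm3 (0.94), Chp1 (0.93), Scrn3 (0.93), Mest (0.92) and Susd2 (0.92). The libraries share genotypes, depth and tissue makeup, so that r describes them and is not a test. Acly, the enzyme that makes the cytosolic acetyl-CoA from which acetylcholine is built, stood at 482, 544 and 503 CPM in Plekhg5+/+ mice and at 386, 458 and 438 CPM in Plekhg5+/+ SOD1-G93A mice, and its r was 0.96 also after the means of the genotypes were taken out. Of these genes, Mest fell with the transgene in Plekhg5+/+ mice, by 0.45 on the log2 scale (adjusted p = 0.0365 by edgeR's quasi-likelihood test). Among all 20155 genes, Slc5a7 ranked 16 (r = 0.91), Chodl 19 (0.91) and Slc18a3 137 (0.80) in likeness to Chat, whereas Isl1 ranked 1307 (0.55) and Ret 1537 (0.52). Between these, Ache ranked 145 (0.80), Mnx1 152 (0.79) and Isl2 304 (0.74). After the genotype means were taken out, r with Chat was 0.92 for Chodl, 0.87 for Slc5a7 and 0.85 for Slc18a3. It was then 0.64 for Ache, 0.60 for Ret, 0.47 for Mnx1, 0.35 for Isl2 and 0.02 for Isl1.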

How the data were processed

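Total RNA from spinal cord was enriched for poly-A mRNA and sequenced from stranded libraries by the authors. Per the paper's methods and the submitters' processing notes, reads were trimmed with Cutadapt 2.4, mapped with STAR 2.7.2b to GRCm38.p6 plus the human SOD1 cDNA, and counted by strand on RefSeq exons with featureCounts 1.6.4. The authors deposited estimated counts per gene, also called expected counts, since reads with several matches or overlaps were counted as fractions, and 17.3 to 18.1% of the entries per library were not whole. They were not normalized. All 12 columns matched a mouse by name.

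Counts were rounded, filtered with filterByExpr (20155 of 45906 genes kept) and scaled by TMM. Robust quasi-likelihood fits over all 4 genotypes were made with edgeR 4.0.16 in R 4.3.3, and p-values were adjusted by Benjamini-Hochberg over all genes tested, with a threshold of 0.05. Each standard error (SE) of a fold change was derived from that test, as the absolute log2 fold change over the square root of F. It thus rests on a spread estimated over all 4 genotypes, not only on the mice compared. DESeq2, which the study used, and limma 3.58.1 were alternatives (DESeq2 1.42.0). CPM values use TMM library sizes, and log2 CPM a prior count of 2. The scripts were tested on simulated data. With 3 mice per genotype and 30415643 to 38743628 counts per library, the scarce transcription factors rested on 30 to 122 counts per library. Replicates differed by 5.79 to 28.4 times the counting noise (chi-square per degree of freedom), so no library was a copy of another of its genotype. Replicate numbers name different mice.

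The members and gene lists were chosen with earlier results of these data known. Named beside the 9 members were Plekhg5, SOD1 and Sod1, up to 6 called genes per list (or the 2 with the smallest p of the averaged transgene effect), the 10 genes most like Chat (1 of them not reported here), genes overlapping a member, and Hoxc6, Hoxc9 and Hoxc10. Scn10a and Hoxd11 were chosen after their values were seen. Promoters came from RefSeq.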

Additional observations from a re-analysis of the deposited data

How the results depend on the processing

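Of 1278 values of the members under 24 alternatives, 0 reversed a call, 29 lost one and 8 gained one, and 48 changed sign without a call. In Plekhg5+/+ mice, 1 member was called for SOD1-G93A with edgeR. With DESeq2, with or without a prior on fold changes, 3 were called (Chat, Isl2 and Chodl), and with limma voom and sample weights, without a filter on low counts, or with the 2 genotypes of the comparison alone, 0 were called. Leaving out 1 mouse at a time gave 0 to 3, with 3 only without Plekhg5+/+ SOD1-G93A replicate 2. Without the libraries with muscle transcripts or without those low in Hoxd11, alternatives chosen after seeing the data, 0 were called. The share of all genes called under each alternative is not given here, so the counts under these alternatives describe the members alone. Averaged over Plekhg5 genotypes, the count of 1 became 0 without a filter, 0 to 1 when 1 mouse was left out, and 0 without the muscle, the Hoxd11-low or the ganglion libraries. The log2 fold change of Chodl in Plekhg5+/+ mice ran from -1.05 to -0.52, and its call was lost in 16 of 24 settings. The other 4 comparisons had 0 members called in every setting. Same-numbered mice were not treated as paired. Their deviations correlated over 0.1 in 5 of 18 pairs of libraries (r from -0.16 to 0.32). These values were not set against differently numbered pairs, so they cannot settle whether mice shared a litter or batch. With the replicate number as a block, 1 member was called in Plekhg5+/+ mice, Isl2 (adjusted p = 0.0281) in place of Chodl (adjusted p = 0.0599), and a term for Y-linked transcripts gave the same exchange (0.0428 and 0.0521). The causes of these changes were not tested. Mnx1, Isl1 and Isl2 rested on 30 to 122 counts per library.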
